A study of Mus musculus with 14 samples.

Results

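Integrins, syndecans and the proteins that couple integrins to the cytoskeleton were read in RNA sequencing of explant cultures from mouse lung and skin. The set was chosen by name, with no measured value: every gene row of the integrin alpha and beta chains, the 4 syndecans, both talins, the 3 kindlins and integrin-linked kinase, which gave 36 of the 48795 genes in the deposited count table. Of these, 34 passed the filter on low counts. Itgae had 0 counts in every library, and Itgad had 1 library above 0, wild-type skin 22 at 0.320 CPM (counts scaled to the library size), so neither was tested.

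The cells grew out of tissue pieces from male mice, C57BL/6J as wild type or Rel-/-, aged 8 to 10 weeks, and were harvested after 14 days of culture with no stimulation in any group. The product of Rel, c-Rel, is an NF-kappaB transcription factor, and its loss in the whole animal was the genotype under study. Wild-type lung had 5 libraries (numbered 1, 23, 3, 4 and 5), Rel-null lung had 4 (7 to 10), wild-type skin had 2 (11 and 22) and Rel-null skin had 3 (18 to 20). Nothing in the labels ties the libraries of a group to separate animals, and the spread that the p-values rest on may therefore be technical.

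Wild-type skin 22 was the shallowest library with 2663437 counts, and the other 13 had 12780350 to 30987933. Skin 19 and 20, labelled Rel-null, read Rel at 9.42 and 9.47 CPM of the raw totals, near the 11.5 and 10.9 CPM of the wild-type skin libraries. In lung the labelled genotypes overlapped in Rel: the library labelled wild-type lung 4 read 1.10 CPM, below 1.39, 3.80 and 4.06 CPM in those labelled Rel-null lung 9, 10 and 8, while the other wild-type lung libraries read 6.27 to 17.3 CPM and Rel-null lung 7 read 0.0651 CPM. Group names below are therefore those of the labels. Wild-type lung 1 and wild-type skin 22 read Xist although the mice are given as male. Rel-null lung 10 carries skin in its treatment label and lung in its title and source, and was kept with lung. In 4 libraries (Rel-null lung 7, wild-type skin 11, wild-type lung 4 and skin 18) between 3.37% and 11.5% of genes expressed elsewhere in the same tissue had 0 counts, against at most 0.728% in the others. Rel-null lung 7 had 8 of the 34 tested members at 0 and wild-type lung 4 had 6. All 10 fibroblast markers examined had counts in all 4 groups, with summed levels from 11312 to 157375 CPM. Lung libraries also held 16 leukocyte and macrophage markers at sums of 5967 to 27675 CPM, against 116 to 194 CPM in skin, and the 3 libraries labelled Rel-null skin held keratinocyte markers at 1238 to 2978 CPM, against 19.2 to 48.4 CPM in every other library. In bulk samples, fewer cells of a type and less RNA per cell cannot be told apart.

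Integrins are receptors of 1 alpha and 1 beta chain that bind matrix or other cells on the outside and actin, through adaptors, on the inside. The beta-1 chain pairs with the collagen, laminin and fibronectin receptors of fibroblasts, alpha-v chains bind vitronectin and latent TGF-beta, and the beta-2 and beta-7 chains are those of leukocytes. Talins and kindlins bind the beta tail and switch the receptor to its active form, and integrin-linked kinase (Ilk) joins the tail to parvins and PINCH proteins. Syndecans are transmembrane heparan sulphate proteoglycans that act beside integrins in adhesion.

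**Figure D1:**
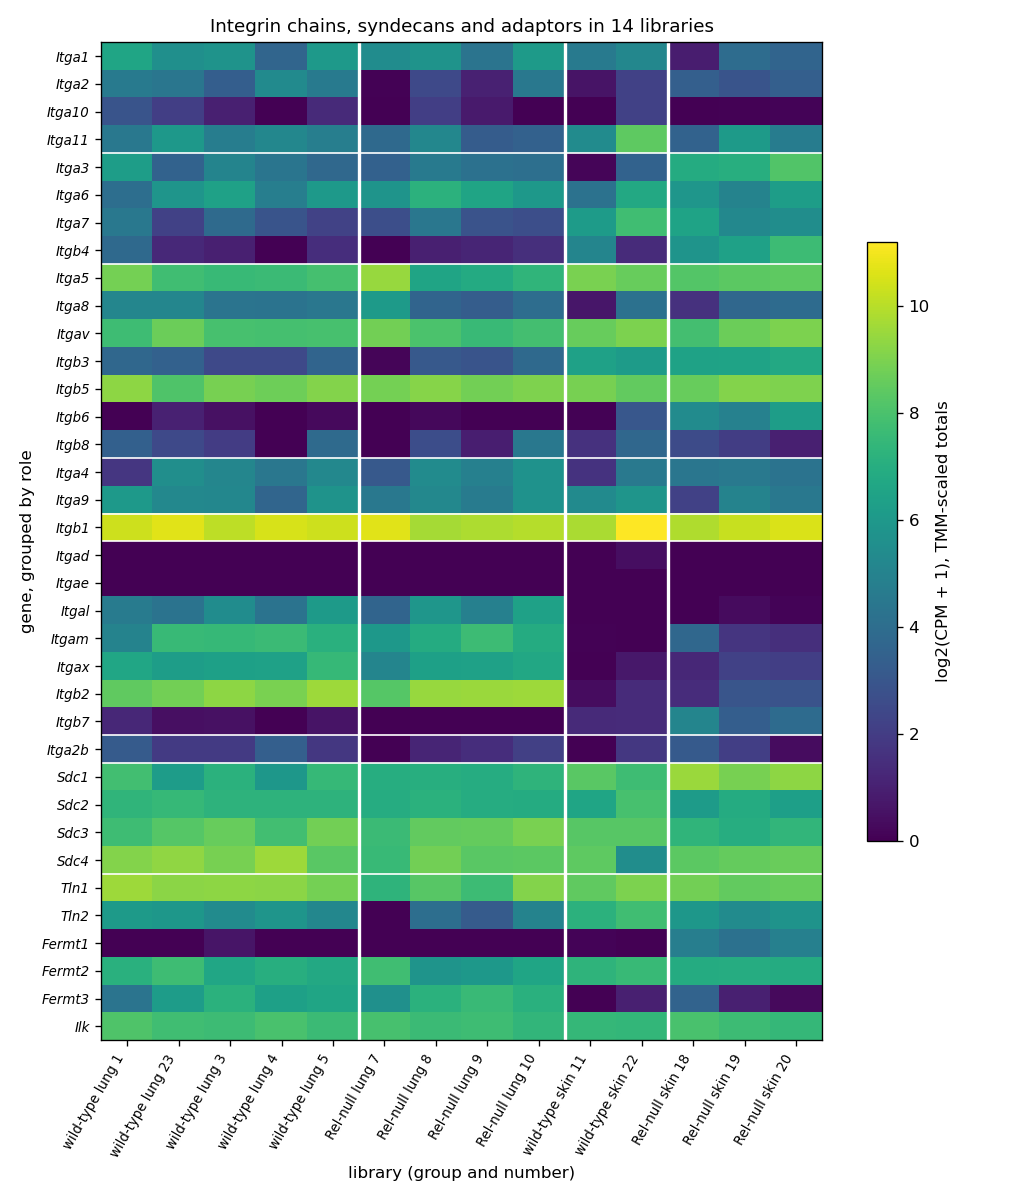
Level of all 36 members (rows, grouped by role, with white lines between roles) in the 14 libraries (columns, with white lines between groups), as log2(CPM + 1) on TMM-scaled totals. The leukocyte block from Itgal to Itgb2 is bright in all 9 lung libraries and dark in the skin libraries, while Itgb6, Itgb7 and Fermt1 are brightest in the 3 libraries labelled Rel-null skin.

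Members that passed a test did so between tissues. In wild-type cultures 7 members passed the test between skin and lung (edgeR quasi-likelihood F test, Benjamini-Hochberg adjusted p under 0.05 over all 16408 genes tested), of which 2 were higher in skin and 5 lower. Over all genes 2.97% passed in that comparison, 0.902% higher and 2.07% lower. Between the libraries labelled Rel-null skin and Rel-null lung 14 members passed, 8 higher in skin and 6 lower, beside 5.05% of all genes, 1.82% higher and 3.23% lower. The number was 6 without skin 19 and 20 (2.34% of all genes), of which 5 were among the 14, and 8 without skin 20 alone (2.52%). DESeq2 called 9 and 15 members in these comparisons (7.51% and 10.8% of all genes) and limma-voom 4 and 20 (4.03% and 27.4%). The groups had no overlap for 13 members in the first (17.8% of all genes) and 16 in the second (20.1%). No member passed for Rel-null against wild type in lung, in skin, or for the difference between these effects, and 0.0% of all genes passed in each of the 3 comparisons.

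Per kilobase of exon, the beta-1 chain Itgb1 had the highest mean level of all members in every group, at 335 ± 51.8 CPM per kb in wild-type lung (mean ± SD, n = 5), 269 ± 90.4 in Rel-null lung (n = 4), 397 ± 258 in wild-type skin (n = 2) and 302 ± 73.0 in the libraries labelled Rel-null skin (n = 3). The beta-5 chain Itgb5, a partner of alpha-v in vitronectin binding, followed a flat course, at 132.5 ± 38.3, 141 ± 15.7, 118 ± 23.7 and 138 ± 25.0 CPM per kb in the same order. The order below Itgb1 differed between tissues. In lung the syndecan Sdc4 (218 ± 64.8 in wild type, 127 ± 42.3 in Rel-null) and the leukocyte chain Itgb2 (176 ± 51.7 and 205 ± 70.0) stood beside Itgb5 within their spread. In skin Itgb2 was at 0.311 ± 0.302 and 1.61 ± 0.926 CPM per kb, ranked 27 and 23 of the 36.

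**Figure D2:**
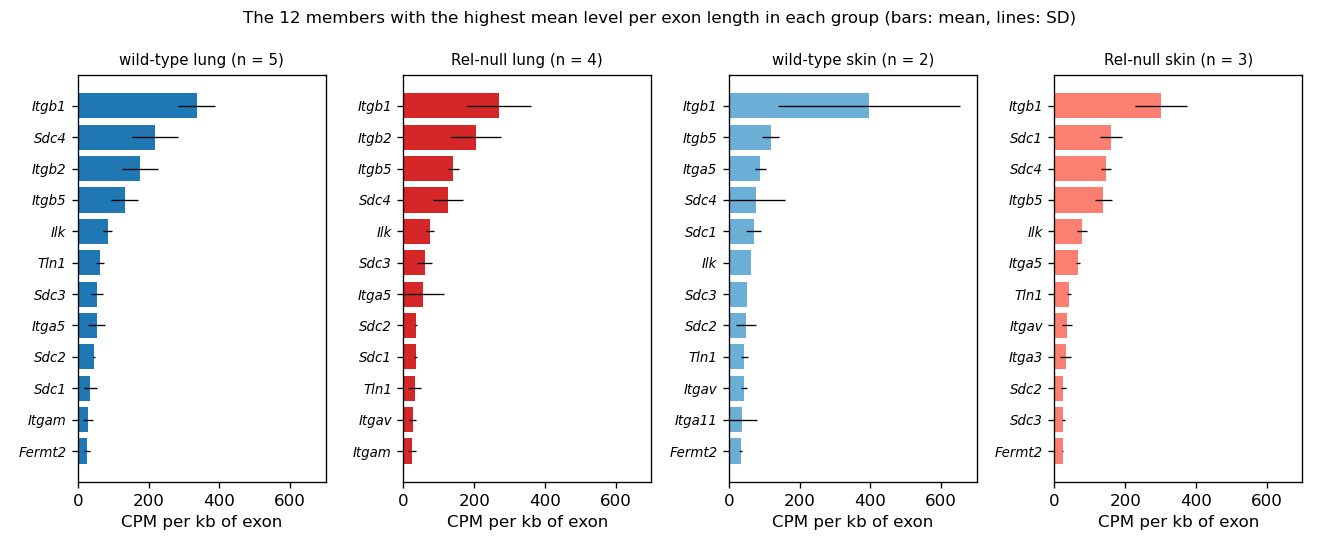
Mean level per exon length (bars, CPM per kb, with SD as lines) of the 12 members with the highest mean in each of the 4 groups. Itgb1 leads in every panel, Itgb2 is among the first 3 in both lung panels and absent from both skin panels, and Sdc1 is second in the libraries labelled Rel-null skin.

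The 5 members that passed as lower in wild-type skin were Itgb2, Itgam, Itgax, Itgal and the kindlin Fermt3. Itgb2, the beta chain shared by the leukocyte integrins, was read at 350, 454, 634, 493 and 753 CPM in wild-type lung 1, 23, 3, 4 and 5. It was read at 308, 716, 724 and 760 CPM in Rel-null lung 7 to 10. Its level was 0.297 and 1.60 CPM in wild-type skin 11 and 22, and 1.67, 6.81 and 6.27 CPM in skin 18, 19 and 20. No skin library came near a lung library, and the lowest lung value belonged to Rel-null lung 7. Itgb2 was lower in wild-type skin than in wild-type lung by a log2 fold change of -9.74 ± 0.95 (SE, adjusted p = 1.33e-04), and in skin labelled Rel-null than in Rel-null lung by -7.01 ± 0.66 (adjusted p = 1.85e-05).

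The alpha chains that pair with it followed. Itgam (alpha-M, the complement receptor chain of macrophages and neutrophils) ranged from 30.8 to 199 CPM in lung of wild type and from 61.6 to 204 CPM in that of Rel-null mice. It had 1 count in wild-type skin 11, at 0.0424 CPM, and 0 counts in wild-type skin 22. In skin 18, 19 and 20 it was at 12.2, 2.27 and 1.87 CPM, above both wild-type skin libraries. Itgax (alpha-X, the CD11c chain of dendritic cells and alveolar macrophages) ranged over the lung libraries from 75.6 to 182 CPM in wild type and from 32.8 to 103 in Rel-null. Its skin values were 0 and 0.640 CPM in wild type and 1.40, 3.44 and 3.24 CPM in skin 18 to 20. Between wild-type tissues Itgam differed by -11.74 ± 1.51 (adjusted p = 5.30e-04) and Itgax by -9.94 ± 1.18 (adjusted p = 2.51e-04), and between the Rel-null labelled groups by -4.50 ± 0.77 (adjusted p = 0.00203) and -4.83 ± 0.67 (adjusted p = 3.88e-04). In the annotation 68.7% of the Itgam exon bases also belong to a read-through gene on the same strand, so its level depends on how reads were shared out. Without skin 19 and 20 the second Itgam difference was -3.35 and did not pass. With limma-voom, Itgb2 passed between wild-type tissues, and Itgam (-10.41), Itgax (-9.88), Fermt3 (-9.36) and Itgal did not.

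Itgal (alpha-L, the LFA-1 chain that lymphocytes and macrophages use to bind ICAM-1) was at 18.5 to 68.3 CPM in the wild-type and at 11.0 to 85.2 CPM in the Rel-null libraries of lung. It had 0 counts in both wild-type skin libraries and in skin 18, and 0.246 and 0.0721 CPM in skin 19 and 20. Against 3 counts over the wild-type skin group it was at least 307-fold lower than in wild-type lung (adjusted p = 0.00268), a call that did not hold without wild-type skin 11, and the Rel-null labelled groups differed by -8.82 ± 1.19 (adjusted p = 3.96e-04). Fermt3, the kindlin of blood cells, had 18.9 to 142 CPM in the wild-type and 48.8 to 193 CPM in the Rel-null libraries of lung. Wild-type skin had 0 and 0.960 CPM, and skin 18, 19 and 20 had 10.9, 0.982 and 0.216 CPM. Its differences were -8.89 ± 1.89 between wild-type tissues and -4.98 ± 1.13 between the Rel-null labelled groups (adjusted p = 0.0158 for each). The first did not pass without wild-type skin 11 (-6.44), nor the second without skin 19 (-4.53) or skin 20 (-4.41).

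The leukocyte markers moved with these members between the tissues, and their part in the result was not tested beyond 1 fit. All 16 markers were lower in skin in both comparisons, and 13 and 15 of them passed the test. With the mean log2 level of the 16 markers as a covariate, 0 members passed between tissues, but every lung library lies above every skin library on that score, so marker level and tissue cannot be told apart. Within lung, the summed level of the leukocyte chains and Fermt3 was lowest in wild-type lung 1 (522 CPM) and Rel-null lung 7 (462 CPM), the same libraries that had the lowest marker sums of their groups (5967 and 7794 CPM). Lymphocyte markers reached at most 5.55 CPM in sum in any library, and 6 of the 8 were at 0 in all wild-type lung libraries.

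The members of the block did not keep the same proportions in every library. Per kilobase, Itgam stood at 0.0535 to 0.253 of Itgb2 in lung of wild type and at 0.0945 to 0.171 in Rel-null lung. In skin 18 the ratio was 4.45, against 0.202 and 0.182 in skin 19 and 20. Fermt3 over Itgb2 was 0.0285 to 0.140 across lung and 3.43 in skin 18. Skin 18 is one of the 4 libraries with many genes at 0, and its leukocyte marker sum, 155 CPM, lay between those of skin 19 (194 CPM) and skin 20 (142 CPM). Single markers went both ways, with Tyrobp at 18.2, 2.88 and 0.793 CPM and Csf1r at 13.6, 17.9 and 23.4 CPM in skin 18, 19 and 20.

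Itgam, Itgax and Itgad are neighbours on the plus strand of chromosome 7 (GRCm38; Itgam at chr7:128062640-128118491, Itgax at chr7:128129547-128150657, Itgad at chr7:128154376-128223816). The first 2 were read in every lung library and Itgad in none. The promoter windows of Itgam and Itgax are shown because these neighbours differed between tissues together. Each runs from 250 bases before to 50 after the RefSeq start (GRCm38.p6, plus strand, chr7:128062390-128062689 and chr7:128129300-128129599). Capitals mark GAGGAA on either strand, the core that ETS factors such as PU.1 of myeloid cells bind.
Itgam: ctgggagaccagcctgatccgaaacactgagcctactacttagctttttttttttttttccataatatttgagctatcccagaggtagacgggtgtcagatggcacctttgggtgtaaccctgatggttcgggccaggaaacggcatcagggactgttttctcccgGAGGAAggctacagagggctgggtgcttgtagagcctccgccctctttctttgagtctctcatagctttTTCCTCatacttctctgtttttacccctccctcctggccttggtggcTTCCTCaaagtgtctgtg
Itgax: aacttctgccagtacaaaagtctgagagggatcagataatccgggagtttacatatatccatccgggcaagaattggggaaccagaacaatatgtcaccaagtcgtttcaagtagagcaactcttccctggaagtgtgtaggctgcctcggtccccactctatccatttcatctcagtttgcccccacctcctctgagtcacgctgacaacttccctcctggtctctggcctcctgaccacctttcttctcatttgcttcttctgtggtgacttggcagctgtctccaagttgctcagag

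The Itgam window held 3 matches and the Itgax window 0. RefSeq windows were found for 26 of the 36 members, 29 windows in all. GAGGAA was in 11 of the 29 (37.9%), against 28.3% of 32851 windows of all genes, and in 2 of the 4 windows of the leukocyte chains and Fermt3. These 4 belong to Itgam, Itgax, Itgb7 and Fermt3, and the 2 with a match are Itgam and Itgb7. Itgb2 and Itgal had no window. A 10-letter kappaB-type site, of the kind that Rel proteins bind, was searched on both strands and was in 0 of the 29 windows, against 1.63% of all windows. These are letter matches within 300 bases and say nothing of binding.

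**Figure D3:**
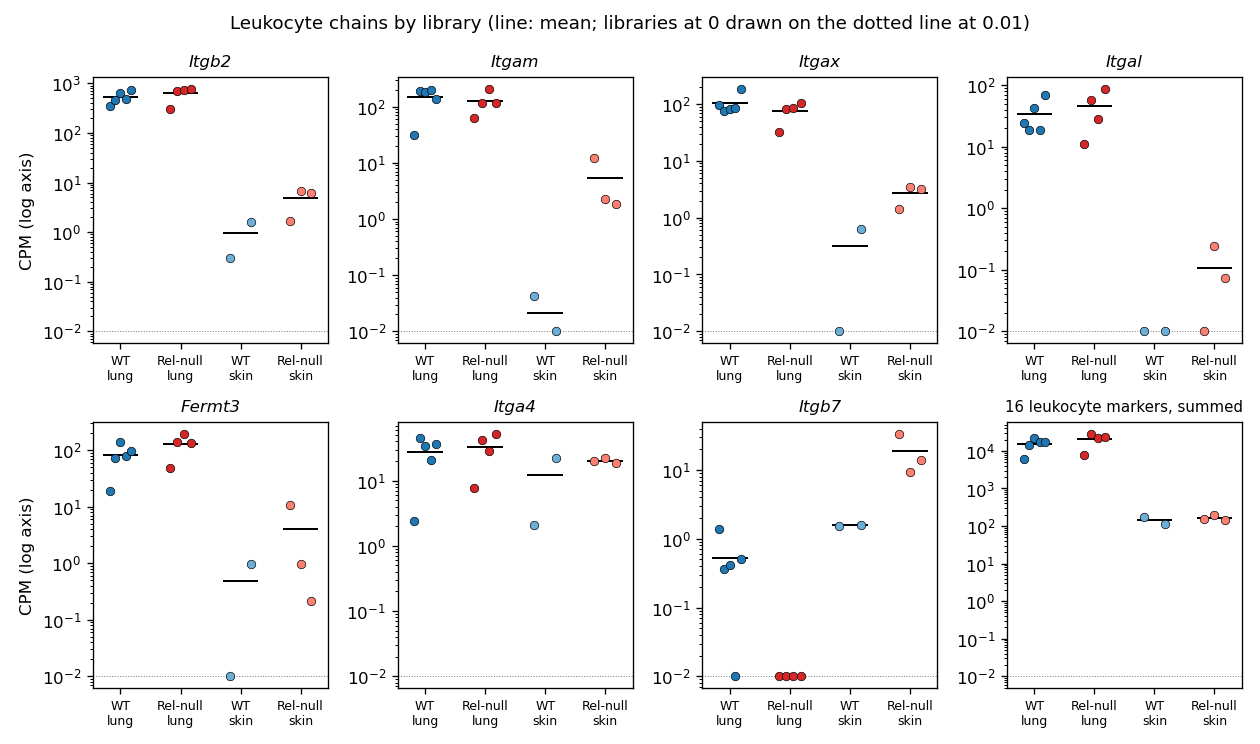
CPM on a log axis of Itgb2, Itgam, Itgax, Itgal, Fermt3, Itga4 and Itgb7 and the summed CPM of 16 leukocyte markers, 1 point per library and a line at the group mean, with libraries at 0 drawn at 0.01. The first 5 genes and the marker sum lie high in lung and low in skin, Itga4 lies in 1 range over the groups, and Itgb7 is highest in the 3 libraries labelled Rel-null skin.

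Itgb7, the beta chain that pairs with alpha-4 or alpha-E on gut-homing and intraepithelial lymphocytes, ran the other way from the rest of the leukocyte chains. It read 1.37, 0.361, 0.413, 0 and 0.510 CPM in wild-type lung, 0 counts in the 4 Rel-null ones, 1.53 and 1.60 CPM in wild-type skin, and 33.1, 9.27 and 14.1 CPM in skin 18, 19 and 20. The 3 libraries labelled Rel-null skin were above all others. Against 3 counts over the Rel-null lung group it was at least 502-fold higher in that skin (adjusted p = 0.00462). Of its partners, the alpha-E chain Itgae was at 0 counts in all 14 libraries and Itga4 was at 19.9, 22.5 and 18.4 CPM in skin 18 to 20. Itgb7 levels were highest in the libraries with keratinocyte markers, and the part of those cells was not tested.

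Itgb4, Itgb6, Fermt1 and Itga3 come from 3 role classes and are set side by side here after their values were seen. Itgb4, which with alpha-6 forms the hemidesmosome receptor for laminin, was read at 54.3, 83.8 and 202 CPM in skin 18, 19 and 20. It was at 33.8 and 1.60 CPM in wild-type skin 11 and 22 and, in lung, at 0 to 13.1 CPM in wild type and 0 to 1.89 CPM in Rel-null. Wild-type skin 11 was thus nearer to the labelled Rel-null libraries than wild-type skin 22 was. Itgb4 was higher in skin labelled Rel-null than in Rel-null lung by 6.77 ± 1.56 (adjusted p = 0.0174), with wild-type tissues differing by 2.38 ± 1.32 (adjusted p = 0.492). The call did not hold without skin 20 (6.09), Rel-null lung 8 (6.74) or Rel-null lung 9 (6.93).

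Itgb6, the epithelial partner of alpha-v that activates latent TGF-beta, read 41.9, 29.5 and 74.8 CPM in skin 18 to 20 and 0.0424 and 7.36 CPM in wild-type skin. In lung its highest value was 1.03 CPM, and it had 0 counts in 2 wild-type and 3 Rel-null lung libraries. Fermt1, the kindlin of epithelium, read 26.5, 16.9 and 28.4 CPM in skin 18 to 20 and at most 0.551 CPM in any other library. Itgb6 was 9.81 ± 2.02 higher on the log2 scale in skin labelled Rel-null than in Rel-null lung (adjusted p = 0.00839), and Fermt1 was at least 640.03-fold higher than 3 counts over the Rel-null lung group allow (adjusted p = 0.0125). The Fermt1 call did not hold without skin 20, and neither call held without skin 19 and 20 together.

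Itga3, the alpha chain that binds laminin-332 beneath epithelium, was at 119, 131 and 285 CPM in skin 18 to 20, against 0.127 and 10.6 CPM in wild-type skin. Lung values lay between, from 10.6 to 74.9 CPM in wild type and from 10.1 to 23.5 CPM in Rel-null, so the 3 libraries labelled Rel-null skin exceeded every other library. The log2 fold change against Rel-null lung was 3.41 ± 0.88 (adjusted p = 0.0334), a call that did not hold without any 1 of the Rel-null lung or labelled Rel-null skin libraries, where it ran from 2.93 to 3.68.

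The keratinocyte markers moved with Itga3, Itgb4, Itgb6 and Fermt1. Krt5 was at 0 counts in all lung libraries, at 0.381 and 0.960 CPM in wild-type skin, and at 413, 112 and 176 CPM in skin 18, 19 and 20. Of the 15 markers, 14 were tested, all 14 were higher in skin labelled Rel-null than in Rel-null lung, and 8 passed. Krt5 and Krt15 passed the low-count filter only through the labelled Rel-null skin. Krt15 had 533 pooled counts there and 0 in the other groups, and Krt5 had 16621 there and 12 in wild-type skin. For such markers the direction was fixed by the filter, here and against wild-type skin. Between wild-type skin and wild-type lung 4 passed, all higher. Against wild-type skin 13 of the 14 were higher, the median log2 fold change was 5.64, and 0 passed. The part of keratinocytes in the 4 members was not tested. The marker sum was highest in skin 18 (2978 CPM). The sum of Itgb4, Itgb6 and Fermt1 was highest in skin 20 (306 CPM, against 123 in skin 18 and 130 in skin 19). Single markers went both ways. Krt14, the largest part of the marker sum, read 1264, 352 and 510 CPM in skin 18, 19 and 20, and Cdh1 read 270, 131 and 317 CPM.

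**Figure D4:**
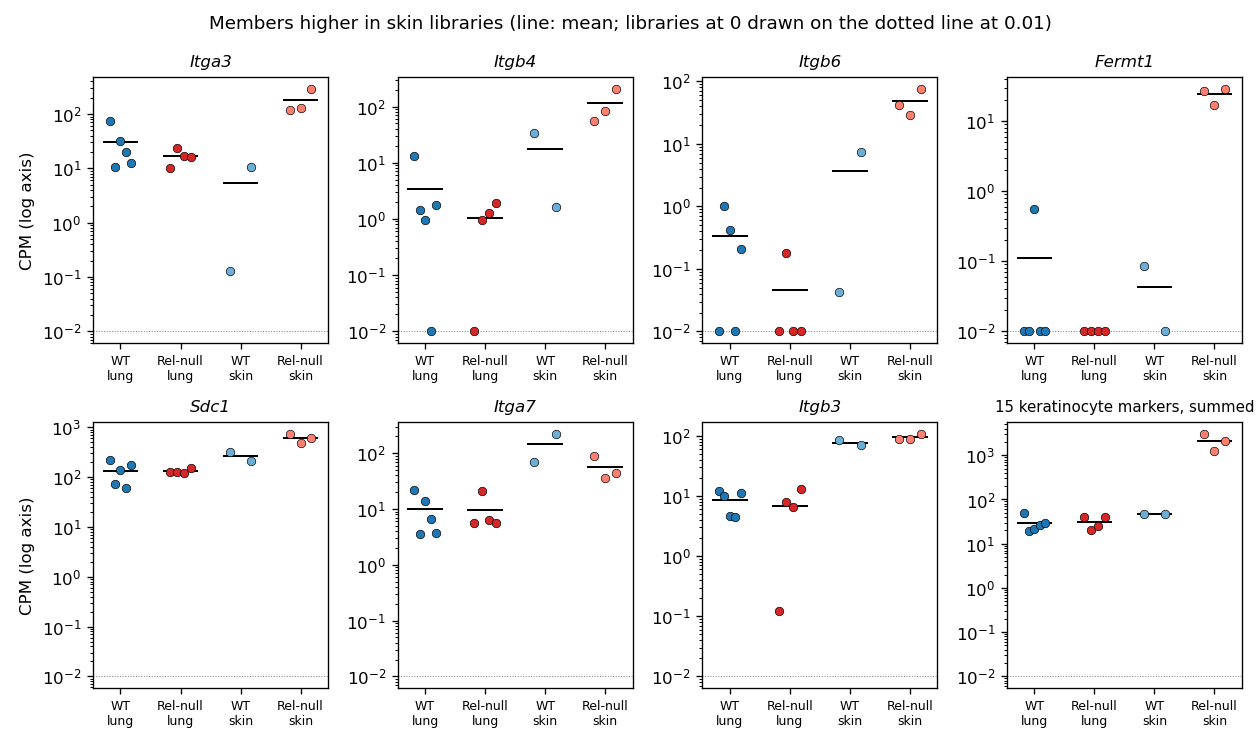
CPM on a log axis of 7 members that passed the test as higher in skin in at least 1 genotype, and the summed CPM of 15 keratinocyte markers, 1 point per library and a line at the group mean, with libraries at 0 drawn at 0.01. Itgb6 and Fermt1 are high in the 3 libraries labelled Rel-null skin alone, as is the marker sum. Itga3 is highest in those 3, with wild-type lung 1 next at 74.9 CPM. Itgb3 and Itga7 are above every lung library in all 5 skin libraries.

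The other laminin chains had different patterns. Itga7, the laminin receptor of muscle, was at 70.3 and 219 CPM in wild-type skin and at 88.5, 36.3 and 43.6 CPM in skin 18, 19 and 20, against 3.50 to 21.5 CPM over all 9 lung libraries. Every skin library lay above every lung library. Itga7 was higher in skin by 3.87 ± 0.70 in wild type (adjusted p = 0.00508) and by 2.55 ± 0.69 between the Rel-null labelled groups (adjusted p = 0.0436). The first call did not hold without wild-type skin 22 (2.84), and the second without any 1 of skin 18 (2.10), skin 19, skin 20, Rel-null lung 7, 9 and 10 or wild-type lung 3. Skeletal muscle markers were also higher in skin, with 6 of 9 passing in wild type and 4 between the Rel-null labelled groups. Their sums were 75.1 and 813 CPM in wild-type skin and 457 to 876 CPM in skin 18 to 20. Rel-null lung 7 had a sum of 844 CPM, with Itga7 at 5.52 CPM. That sum came from Des (534 CPM) and Acta1 (310 CPM) alone, and every other muscle marker, Myod1 and Myog among them, was at 0 there. The part of muscle cells was not tested.

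Itga6, the alpha chain of the hemidesmosome and of laminin adhesion more widely, overlapped between all groups, from 15.3 to 84.4 CPM in wild-type and 53.9 to 147 in Rel-null lung, with 17.8 and 109 CPM in wild-type skin and 31.2 to 75.1 in skin 18 to 20. Per kilobase it was the highest laminin chain in lung, at 5.43 ± 3.09 in wild type, beside 5.27 ± 4.63 for Itga3, which did not differ beyond their spread, and at 9.87 ± 4.70 in Rel-null lung. Itga7 led in wild-type skin with 17.9 ± 12.96 CPM per kb, and in the labelled Rel-null skin Itga3 led with 31.2 ± 16.3.

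Among the collagen receptor chains Itga11, the fibrillar collagen receptor of fibroblasts, had the highest mean level per kilobase in all 4 groups (6.72 ± 3.25, 3.29 ± 2.45, 37.1 ± 40.9 and 6.73 ± 5.87 CPM per kb). The wild-type skin mean rested on skin 22, which read 339 CPM against 41.8 CPM in skin 11. Wild-type lung ranged from 21.2 to 62.8 CPM, Rel-null lung from 8.58 to 35.6, and skin 18 to 20 read 10.6, 68.4 and 24.7 CPM. The tissue difference was 2.46 ± 0.72 in wild type (adjusted p = 0.0896) and 1.03 ± 0.70 between the Rel-null labelled groups (adjusted p = 0.488).

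Itga1, a receptor for basement membrane collagen, was at 11.6 to 94.3 CPM in wild-type and 18.9 to 67.3 CPM in Rel-null lung, 23.2 and 35.5 CPM in wild-type skin, and 0.836, 14.5 and 11.4 in skin 18 to 20. The labelled Rel-null skin libraries lay below all Rel-null lung libraries, with a log2 fold change of -2.36 ± 0.80 and an adjusted p of 0.109. Itga2, the collagen receptor of platelets, epithelium and fibroblasts, was at 9.20 to 40.0 CPM in wild-type lung. In Rel-null lung 7 to 10 it read 0.0607, 4.47, 1.04 and 21.2 CPM, so 1 library lay within the wild-type range. Itga10, the collagen receptor of cartilage, did not pass 6.50 CPM in any library and was at 0 counts in 5 of the 14, and 33.5% of its exon bases are shared with a second gene on the same strand.

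Of the chains that bind fibronectin, vitronectin or latent TGF-beta, Itgb3 was the one that passed in both tissue comparisons. This beta chain pairs with alpha-v, and with alpha-IIb in platelets. It was at 12.2, 10.1, 4.62, 4.50 and 11.1 CPM in wild-type and at 0.121, 7.85, 6.64 and 13.1 CPM in Rel-null lung. It was at 84.8 and 70.7 CPM in wild-type skin and at 87.7, 89.2 and 106 CPM in skin 18 to 20. The 5 skin libraries lay in a narrow range above all lung libraries. The log2 fold changes were 3.19 ± 0.78 in wild type (adjusted p = 0.0360) and 3.76 ± 0.81 between the Rel-null labelled groups (adjusted p = 0.0111). The wild-type call did not hold without any 1 of 7 libraries (wild-type skin 11, wild-type lung 23, 3, 4 and 5, skin 19 and skin 20), with values from 3.04 to 3.31, and the second did not hold without skin 19 and 20 together (3.66) or in a fit of the 2 groups alone (3.77). The alpha-IIb chain Itga2b overlapped between tissues at 0 to 9.59 CPM (-2.09 ± 2.13 and 1.29 ± 1.67, adjusted p = 0.786 and 0.789), and the 4 platelet markers summed to 6.64 to 114 CPM in lung, 2.56 and 17.5 CPM in wild-type skin and 51.0 to 75.7 CPM in skin 18 to 20. Gp9 was at 0 in every library, and 3 were tested, of which 1 passed as lower in wild-type skin and 1 as higher in the labelled Rel-null skin, each against lung. Their part was not tested.

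The remaining chains of this class overlapped between groups, except Itga5 between the 2 skin groups and Itga8 between the wild-type tissues. Itga5, the classical fibronectin receptor chain, was at 188 to 463 CPM in wild-type and 93.2 to 720 CPM in Rel-null lung, 490 and 382 CPM in wild-type skin and 299 to 348 CPM in skin 18 to 20. Per kilobase it ranked directly after Itgb5 within the class in every group. Itgav, the alpha-v chain, was at 191 to 517 CPM over all libraries. Itgb5 was at 274 to 634 CPM. The tissue differences of Itgb5 were -0.16 ± 0.31 in wild type (adjusted p = 0.922) and -0.03 ± 0.28 between the Rel-null labelled groups (adjusted p = 0.988). Itga8, a nephronectin receptor of mesenchyme, was at 8.85 to 67.5 CPM in lung and 0.593 to 17.0 CPM in skin. Itgb8, the other latent TGF-beta receptor chain, was at 0 to 21.5 CPM over all libraries.

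Itgb1 itself was read at 1312, 1648, 1084, 1483 and 1314 CPM in wild-type lung, at 1643, 839, 911 and 1003 CPM in Rel-null lung, at 875 and 2363 CPM in wild-type skin and at 937, 1225 and 1533 CPM in skin 18 to 20. The spread inside wild-type skin exceeded any difference between group means. Its tissue differences were 0.24 ± 0.39 in wild type (adjusted p = 0.895) and 0.16 ± 0.36 between the Rel-null labelled groups (adjusted p = 0.894). Itga4 and Itga9 bind VCAM-1 and tenascin among other ligands. Itga9 had the higher mean level per kilobase in each group (5.25 ± 2.65, 4.36 ± 1.78, 6.32 ± 1.59 and 2.41 ± 1.81 CPM per kb), and neither chain passed in any comparison (Itga9 gave tissue differences of 0.27 ± 0.68 and -0.86 ± 0.64, adjusted p = 0.946 and 0.546). Itga4, also a leukocyte chain, was at 2.08 to 51.3 CPM over all libraries and did not separate lung from skin as the beta-2 chains did.

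Among the syndecans, Sdc1, the syndecan of epithelium and plasma cells, read 725, 487 and 622 CPM in skin 18 to 20, above 319 and 211 CPM in wild-type skin and above every lung library (59.6 to 222 CPM in wild type, 122 to 153 in Rel-null). It was higher in the labelled Rel-null skin than in Rel-null lung by 2.21 ± 0.39 (adjusted p = 0.00256). The keratinocyte marker sums given above moved with it, and their part was not tested. Sdc3, best known from nerve and muscle, was lower there, at 160, 127 and 166 CPM against 198, 364, 370 and 494 CPM in Rel-null lung, by -1.24 ± 0.34 (adjusted p = 0.0447). The Sdc3 call did not hold without any 1 of skin 18, 19 and 20, Rel-null lung 8, 9 and 10 or wild-type lung 3 and 23, with values from -1.04 to -1.28, nor with upper-quartile factors (-1.14) or in a fit of the 2 groups alone (-1.23). In wild-type skin Sdc3 was at 310 CPM in both libraries, inside the wild-type lung range of 212 to 456 CPM.

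Sdc4, the focal adhesion syndecan, had the highest mean per kilobase of its family in wild-type lung, Rel-null lung and wild-type skin, and was second to Sdc1 in the labelled Rel-null skin (145 ± 14.5 against 160 ± 31.3 CPM per kb, within their spread). It was at 563, 647, 480, 762 and 327 CPM in wild-type and at 187, 450, 325 and 332 CPM in Rel-null lung. Wild-type skin 22 was the lowest of all libraries at 44.2 CPM, with 341 CPM in skin 11 and 331 to 405 CPM in skin 18 to 20. Its tissue differences were -1.52 ± 0.58 in wild type (adjusted p = 0.229) and 0.19 ± 0.49 between the Rel-null labelled groups (adjusted p = 0.913). Per kilobase, Sdc1 stood at 0.0523 to 0.447 of Sdc4 across the 9 lung libraries and at 0.625 to 3.19 across the 5 skin libraries. Sdc2, the syndecan of mesenchyme, was at 150 to 180 CPM in wild-type and at 117 to 141 CPM in Rel-null lung, with no overlap. Its skin levels were 96.6 and 244 CPM in wild type and 70.7 to 119 CPM in skin 18 to 20.

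Of the adaptors, Ilk had the highest mean level per kilobase in every group (84.1 ± 12.5, 75.4 ± 11.9, 63.1 ± 0.536 and 77.4 ± 14.5 CPM per kb), with a range of 168 to 281 CPM over all libraries. Its tissue differences were -0.41 ± 0.26 (adjusted p = 0.568) and 0.04 ± 0.23 (adjusted p = 0.977). In the annotation 89.7% of its exon bases lie across from genes on the opposite strand, and whether counting used the strand is not given, so its level may include their reads. Fermt2, the kindlin of fibroblasts and muscle, was at 54.6 to 219 CPM over all libraries and did not separate tissues. Tln2, the talin of muscle and brain, was at 35.7 to 68.8 CPM in wild-type and 0, 15.7, 8.31 and 30.98 CPM in Rel-null lung, 145 and 219 CPM in wild-type skin and 59.3, 40.9 and 52.8 CPM in skin 18 to 20. Both skin groups lay above lung of the same label, with differences of 1.80 ± 0.90 (adjusted p = 0.417) and 1.89 ± 0.88 (adjusted p = 0.255).

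The genotype comparison in lung set libraries labelled Rel-null against those labelled wild type, whose Rel levels overlapped. No member passed, with or without wild-type lung 4, and 4 had an unadjusted p under 0.05, beside 6.31% of all genes. DESeq2 called 1 member, Itgb7 (0.311% of all genes), and limma-voom 0 (0.0366%). The talins were 2 of the 4. Tln1, the general talin, was at 749, 619, 637, 613 and 460 CPM in wild-type and at 156, 317, 206 and 564 CPM in Rel-null lung, a log2 fold change of -0.98 ± 0.32 (unadjusted p = 0.00796, adjusted p = 0.781) with Rel-null lung 10 inside the wild-type range. For Tln2 the 2 groups did not overlap (-1.92 ± 0.81, adjusted p = 0.781). Sdc2 was the other member with no overlap (-0.34 ± 0.26, adjusted p = 0.937), and 2.24% of all genes had none.

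The other 2 were Itgb7, at least 13.7-fold lower against 3 counts over the Rel-null lung group (adjusted p = 0.781), and Fermt1, which had counts in 1 wild-type lung library (adjusted p = 0.781). Both lie at or under 1.37 CPM in lung. The next by p were Sdc4 (-0.78 ± 0.43, adjusted p = 0.819) and Itga2 (-1.79 ± 1.06, adjusted p = 0.847). Values below 0 outnumbered those above, 23 to 11, with a median of -0.28 over the 34 members against -0.08 over all genes tested, of which 43.9% were above 0. All 4 collagen receptor chains had values below 0. The highest members of their classes gave -0.32 ± 0.32 for Itgb1, 0.09 ± 0.25 for Itgb5, 0.22 ± 0.42 for Itgb2, 0.86 ± 0.53 for Itga6, -1.03 ± 0.63 for Itga11, -0.27 ± 0.55 for Itga9, -1.71 ± 1.55 for Itga2b and -0.16 ± 0.20 for Ilk, with adjusted p from 0.865 to 1.000.

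In skin no member passed between the libraries labelled Rel-null and wild type, and 10 had an unadjusted p under 0.05, beside 6.24% of all genes. DESeq2 called 4 (Itga3, Itgam, Itgax and Itgb2, all higher; 0.932% of all genes) and limma-voom 0 (1.83%). The 6 with the smallest p were Itgam (7.01 ± 1.49, adjusted p = 0.216), Itgax (4.65 ± 1.16, adjusted p = 0.387), Itga3 (5.24 ± 1.32, adjusted p = 0.399), Itgb2 (2.96 ± 0.81, adjusted p = 0.446), Itga11 (-2.46 ± 0.84, adjusted p = 0.664) and Fermt1 (8.44 ± 2.97, adjusted p = 0.699). These folds start from wild-type skin levels of a few counts for Itgam, Itgax, Itgb2 and Fermt1. That of Itga3 starts from 3 counts in wild-type skin 11 and 33 in wild-type skin 22, the shallowest library. The 16 leukocyte markers had a median of 1.53 in the same comparison, with 12 higher, 3 lower and 0 passing. Their sums were 116 and 176 CPM in wild type and 142 to 194 CPM in the labelled Rel-null libraries. These sums rest on a few markers, such as Cd53 at 57.1 and 71.7 CPM in wild type and 10.8, 23.6 and 23.4 CPM in skin 18 to 20. Tyrobp read 0.0424 and 0.640 CPM against 18.2, 2.88 and 0.793 CPM, and Ptprc 0.127 and 0.960 CPM against 3.14, 1.78 and 1.30 CPM. The part of leukocytes was not tested.

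The groups did not overlap for 18 of the 34 members in skin, 12 higher and 6 lower, beside 25.1% of all genes. Since skin 19 and 20 read Rel near the wild-type level, values were also taken with skin 18 as the lone labelled Rel-null library, assumed to vary like the other groups: 1 member passed, Itgam, beside 0.314% of all genes. Without wild-type lung 1 and wild-type skin 22, 4 passed (Itga3, Itgam, Itgax and Itgb2), beside 2.5% of all genes. Without the 4 libraries with the most genes at 0, 1 passed, Sdc4, beside 0.498% of all genes. Each of these fits left 1 library in a skin group: skin 18, wild-type skin 11 and wild-type skin 22 in turn. In the last, wild-type skin 22, the shallowest library and the lowest in Sdc4 (44.2 CPM), was set against skin 19 and 20. A single library has no spread of its own, so these calls cannot be read as replicated genotype results. In the fit of all libraries, among the class leaders of skin, Itgb1 gave -0.39 ± 0.42, Itgb5 0.23 ± 0.34, Itga7 -1.36 ± 0.80, Sdc1 1.21 ± 0.48, Sdc4 0.94 ± 0.60, Itga9 -1.39 ± 0.74, Itga2b 1.67 ± 2.18 and Ilk 0.29 ± 0.28 (adjusted p from 0.746 to 0.966).

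**Figure D5:**
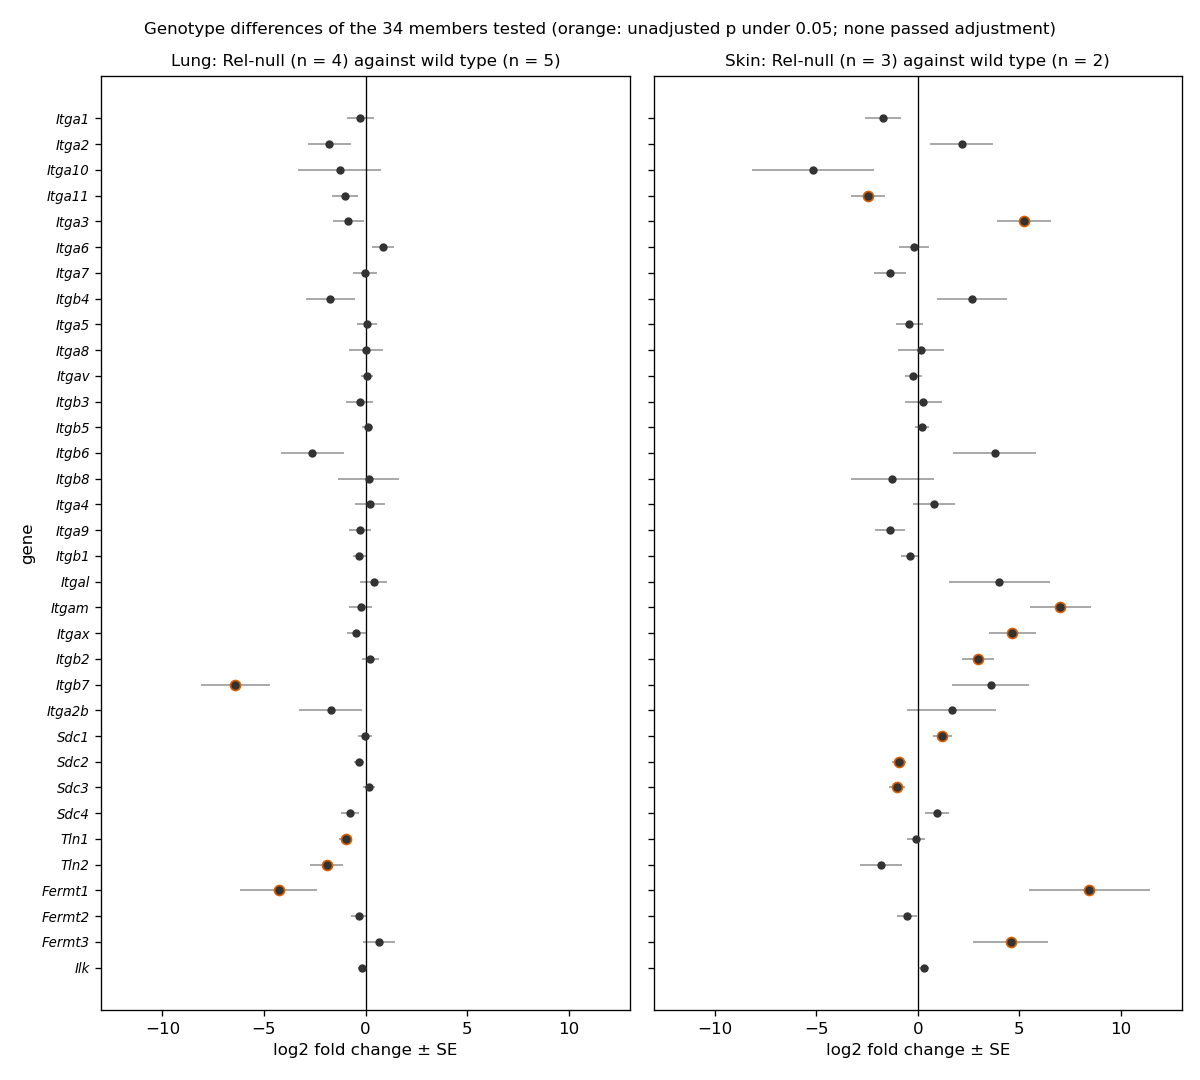
Log2 fold change with its SE for the 34 tested members, Rel-null against wild type in lung (left) and in skin (right), with an unadjusted p under 0.05 ringed in orange. In lung 4 members are ringed, all below 0, and in skin 10, of which Itgam, Itgax, Itga3, Itgb2, Fermt1, Fermt3 and Sdc1 are above 0, and none passed adjustment in either tissue.

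The difference between the 2 genotype effects passed for 0 members, with 10 at an unadjusted p under 0.05 beside 4.67% of all genes, 5 called by DESeq2 (0.609%) and 0 by limma-voom (1.06%). The smallest p belonged to Itgam (7.25 ± 1.61, adjusted p = 0.384), Itga3 (6.09 ± 1.49, adjusted p = 0.588), Itgax (5.11 ± 1.26, adjusted p = 0.588), Itgb7 (10.01 ± 2.65, adjusted p = 0.678), Fermt1 (12.72 ± 3.55, adjusted p = 0.801) and Itgb2 (2.74 ± 0.91, adjusted p = 1.000), all more positive in skin. For Itgb7 and Fermt1 the size depends on groups at 0 counts and is no bound. Among the class leaders Itgb1 gave -0.08 ± 0.53, Itgb5 0.13 ± 0.42, Sdc4 1.72 ± 0.74 and Ilk 0.45 ± 0.35 (adjusted p = 1.000 for each).

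The genes that work with integrins inside the cell were read as a list of 57: 48 of focal adhesions and integrin signalling (among them Ptk2, Src, Pxn, Vcl, the parvins and tensins) and 9 membrane partners such as the tetraspanins. All 57 were tested, and 0 passed in each of the 3 genotype comparisons. Between wild-type tissues 2 passed, both lower in skin, which is 3.51% of the list beside 2.97% of all genes. These were Arhgef6 (alpha-PIX, an exchange factor for Rac and Cdc42), at 7.34 ± 1.78 CPM in skin against 38.5 ± 8.78 in lung (-2.37 ± 0.61, adjusted p = 0.0484), and Fblim1 (migfilin, which binds filamin and kindlin-2), at 36.8 ± 23.9 against 116 ± 15.1 CPM (-1.67 ± 0.38, adjusted p = 0.0227).

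Between the Rel-null labelled groups 3 passed, 5.26% of the list beside 5.05% of all genes. Both shares are near those of all genes. Arhgef6 was lower in skin (-2.98 ± 0.54, adjusted p = 0.00324), as was Parvg, the parvin of blood cells, at 0.411 ± 0.434 CPM against 30.5 ± 14.7 in Rel-null lung (-6.25 ± 1.47, adjusted p = 0.0199). Tes (testin, a LIM protein of focal adhesions) was higher, at 160 ± 23.5 CPM against 57.7 ± 18.0 (1.47 ± 0.29, adjusted p = 0.00538). Of the 3, Parvg alone passed without skin 19 and 20. With DESeq2 7 passed (12.3% of the list, beside 10.8% of all genes) and with limma-voom 23 (40.4%, beside 27.4%).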

How the data were processed

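RNA from 14 explant cultures was sequenced from directional libraries, per the labels' protocols. The authors deposited raw read counts per Ensembl gene. STAR 2.4.2a, Trimmomatic 0.33, FastQC 0.11.2 and the build GRCm38 appear, with no role, in the submitters' processing notes. How reads were counted, with which strand setting and annotation, is not given in the sources used here. Groups follow the titles, and no replicate number is shared between groups.

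Symbols, coordinates and merged exon lengths came from GENCODE M21, and promoter windows from RefSeq (GRCm38.p6). CPM values use totals scaled by TMM factors unless raw totals are named. Levels of different genes are compared per kilobase of exon. edgeR 4.0.16 (R 4.3.3) was run on all 16408 genes that passed filterByExpr (minimum count 10, minimum total 15), with 1 quasi-likelihood fit of 4 group means over all 14 libraries and Benjamini-Hochberg adjustment at 0.05. The spread was estimated over all groups together, since wild-type skin has 2 libraries. The SE is the log2 fold change divided by the square root of F. Where a group had 0 counts, a fold is a bound against 3 counts over that group, which covers counting error only. The procedure was tested on simulated data, where recovery of the changed genes was required only at a spread set lower than that of these data.

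Full statistics are given for members that passed, otherwise for the 6 with the smallest p, and for the member with the highest mean CPM per kb of each class. Alternatives were RLE and upper-quartile factors, other count filters, DESeq2 1.42.0, limma-voom (limma 3.58.1), a leukocyte covariate, other sets of libraries, and each library left out. The pathway counts under these alternatives were added after seeing the data. The members and lists were chosen with earlier results of these data known. Protein sequences were not analysed here. Replicates of a group differed by more than sampling noise (chi-square per degree of freedom at least 33.1).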

Additional observations from a re-analysis of the deposited data

Results flagged for a closer look

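Levels of single members were examined for a library far from the rest of its group (Dixon's test at the 95% level) in wild-type lung and Rel-null lung, since the skin groups are too small. Of 34 members with counts in wild-type lung, 5 stood out, and of 32 in Rel-null lung, 5. Chance marks about 1 in 20 such sets if their values are normally distributed. A member with counts in 1 library alone is always marked, as were Fermt1 in wild-type lung 3 and Itgb6 in Rel-null lung 8.

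Rel-null lung 7 held 3 of these values. Itga5 was at 720 CPM there, against 93.2 to 158 CPM in Rel-null lung 8 to 10, and Itga8 at 67.5 CPM, against 8.85 to 15.1. Itgb2 was low in the same library, at 308 CPM against 716 to 760. Rel-null lung 8 had Itga7 at 20.9 CPM, against 5.52 to 6.37 in the others, and Itgb6 at 0.183 CPM, with the others at 0.

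In wild-type lung 1, Itga5 was at 463 CPM, against 188 to 238 CPM in the other 4 libraries, and Itgb4 at 13.1 CPM, against 0 to 1.79. Wild-type lung 23 had Itgav at 416 CPM, against 211 to 247. Itgax stood at 182 CPM in wild-type lung 5, against 75.6 to 96.9 CPM elsewhere. Fermt1 had counts in wild-type lung 3 alone, at 0.551 CPM.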

How the results depend on the processing

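No paired analysis was possible because the groups share no replicate numbers. Some settings left 1 library in a skin group, and their skin counts below cannot be read as replicated results. These were the settings without the Xist-positive libraries, without the 4 libraries with most genes at 0, and without skin 19 and 20. Leaving out wild-type skin 11 or wild-type skin 22 did the same. For Rel-null against wild type, members passing went from 0 to 1 in lung with DESeq2. In skin they went to 3 without a count filter, 4 with DESeq2 or without the Xist-positive libraries, and 1 without the 4 libraries with most genes at 0 or without skin 19 and 20. For the difference of effects they went to 2, 5, 3, 1 and 1 in those settings (no filter, DESeq2, no Xist-positive libraries, and both last). Between wild-type tissues 7 became 4 with limma-voom and 0 with the leukocyte covariate, and between the Rel-null labelled groups 14 became 0 with the covariate and 6 without skin 19 and 20. With each library left out, members passing ranged from 0 to 0 in lung, 0 to 3 in skin (3 without wild-type skin 22), 0 to 2 for the difference, 6 to 8 between wild-type tissues and 8 to 14 between the Rel-null labelled groups.

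Pathway genes passing ranged from 0 to 0, 0 to 1, 0 to 0, 0 to 5 and 2 to 8 in the same order with each library left out. In skin, 1 passed without the Xist-positive libraries. Between wild-type tissues, 2 became 1 with RLE or upper-quartile factors, with the compared groups alone or without skin 19 and 20, 4 without a filter or without the 4 libraries with most genes at 0, 6 with DESeq2 and 0 with the covariate. Between the Rel-null labelled groups, 3 became 7 with DESeq2, 23 with limma-voom, 0 with the covariate, 9 without the 4 libraries, 1 without skin 19 and 20 and 6 without the Xist-positive libraries. Members without overlap ranged, with each library left out, from 2 to 6 in lung (6 without Rel-null lung 7) and 20 to 29 in skin. The ranges were 13 to 21 between wild-type tissues and 16 to 19 between the Rel-null labelled groups. A smaller group leaves less to overlap, and the share of all genes was not taken with a library left out, so these counts cannot be set against it.

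Under the covariate the Rel-null labelled tissue difference turned for Fermt3 (1.05), Itgb4 (-1.67) and Sdc3 (1.32), the covariate separating the tissues by construction. Of 349 recomputed values for the 14 members named there, 294 kept their call and direction and 52 lost the call. Between wild-type tissues 152 of 175 kept both and 23 lost the call. Fermt1 in lung gave no value without wild-type lung 3. Depth limits members near 0, wild-type skin 22 most.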
